A study of Homo sapiens with 8 samples.

Results

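Most proteins that a cell secretes or places in its membranes enter the endoplasmic reticulum (ER) while they are being made. The signal recognition particle (SRP) catches the emerging signal sequence and docks at its receptor, the SEC61 channel with its partners lets the chain through, signal peptidase cuts the signal sequence off, and oligosaccharyltransferase (OST) attaches a sugar tree to asparagines. The TRAP complex (translocon-associated protein, genes SSR1 to SSR4) sits beside the channel. The 34 genes described here encode these 6 complexes and were chosen by name: 6 genes of SRP, 2 of its receptor, 7 of the SEC61 translocon, 4 of TRAP, 5 of signal peptidase and 10 of OST. All 34 were found among the 58302 genes of the table.

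The libraries came from A549, an established line of human lung adenocarcinoma cells, transfected with a small interfering RNA (siRNA) labelled siAPEX1, directed at the DNA repair enzyme APE1 (gene APEX1), or with a scrambled control labelled siCTRL. The series asked which RNAs differ when APE1 is silenced, and each group had 4 libraries (replicates 1 to 4). Total RNA was prepared with a kit for small RNAs that was altered to keep longer transcripts too. The study calls its replicates biological, and the labels do not say how the cultures were kept apart. The p-values measure the spread between these libraries.

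APEX1, the targeted gene, had 51, 61, 64 and 47 counts in the siCTRL libraries and 21150, 19470, 27916 and 20767 counts in the siAPEX1 libraries. Its counts went against the label siAPEX1 in all 4 of those libraries, and a count per gene does not separate messenger RNA from short RNAs of the same sequence. Silencing is therefore not checked by these counts. Exchanged labels and reads of the siRNA itself cannot be told apart here, and exchanged labels would turn every direction below, so each is that of libraries as labelled. The study checked silencing of APE1 in this line by Western blotting, which was not analysed here. The totals were 1639796 to 1949886 counts in the siCTRL libraries and 1348386 to 1619500 in the siAPEX1 libraries, so depth and label cannot be told apart. Nuclear protein-coding genes other than APEX1 took 15.4% ± 0.296 of the counts in siCTRL and 12.2% ± 0.323 in siAPEX1 (SD, n = 4 each). The 10 genes fixed as markers of A549 were all present, with a summed level of 1620 to 1803 CPM (counts per 1000000 counts of the scaled library size) in siCTRL and 1490 to 1618 CPM in siAPEX1. Of these markers 5 were lower and 2 higher by the edgeR test described below, with log2 fold changes (siAPEX1 over siCTRL) of -1.36 for KRT18, -1.01 for KRT8 and 0.83 for AKR1B10, and their part in the results below was not tested. Of 6 genes expected near 0, the collagen gene COL1A1 had 1 to 11 counts per library, and the other 5, which mark blood, liver or are deleted in the line, had at most 1.

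Genes of all these complexes but the SRP receptor were among those lower in the libraries labelled siAPEX1, and 1 subunit of signal peptidase was higher. Of the receptor's 2 genes only 1, SRPRA, had enough counts to be tested. Counts were high enough to test 30 of the 34 genes. Of these 30, 14 were lower and 1 was higher at an adjusted p of at most 0.05 (edgeR quasi-likelihood test, Benjamini-Hochberg over all 5368 genes tested), and 15 did not pass. That is 46.7% of the tested genes lower, where 15.8% of all genes tested were lower and 15.9% were higher. Among the 4856 nuclear protein-coding genes tested, 15.9% were lower and 12.4% higher. In bulk libraries such as these, less RNA per cell and fewer cells that hold it cannot be told apart.

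The fitted log2 fold change (siAPEX1 over siCTRL) was negative for 28 of the 30, with a median of -0.38 and a range from -1.63 to 1.30. The median over all genes tested was -0.003, and over nuclear protein-coding genes -0.03. Past a log2 fold change of 1 as well stood MAGT1, SEC11C and SRP19 on the lower side and SPCS2 on the higher side. The lower side held 3 of 30, against 5.68% of all genes and 5.77% of nuclear protein-coding genes. No share of all genes past both thresholds was taken for the higher side. In 10 of the 30 tested genes every siAPEX1 library lay below every siCTRL library, which held for 15.1% of the nuclear protein-coding genes. With the 4 genes under the filter, the libraries did not overlap in 12 genes on the lower side and 1 on the higher, and overlapped in 21. Those added on the lower side were SRP9 and SRPRB, which had few counts. No matching share over all genes was taken for the higher side or with genes under the filter, so these counts are a description only.

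The number of genes called depended on the tool and the scaling. DESeq2 called 8 lower, where it called 10.1% of all genes lower, and scaling by library size alone called 26, where 36.2% of all genes were lower. The 8 were TRAM1, SSR2, SSR3, SSR4, SPCS3, SEC11A, SEC11C and MAGT1, and these 8 and SPCS2 kept their call in every alternative in which they were tested.

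**Figure D1:**
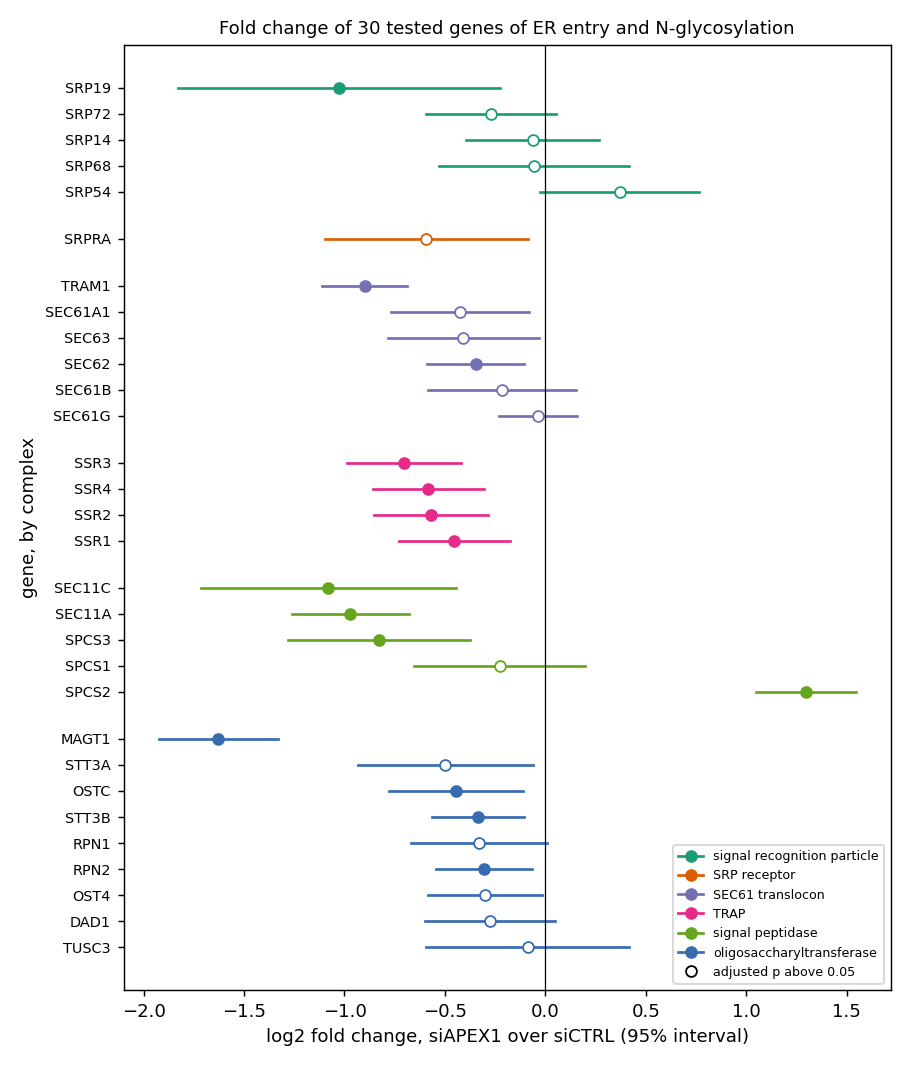
Fitted log2 fold change of siAPEX1 over siCTRL (x axis) for the 30 tested genes, grouped and coloured by complex, with bars for the 95% interval of the fit and open circles where the adjusted p exceeded 0.05. MAGT1 lies farthest to the left at -1.63, all 4 TRAP genes lie left of 0, and SPCS2 lies farthest to the right at 1.30. SRP54, not called, also lies right of 0 at 0.37.

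The promoters are shown first, since the ER stress response is known to act on genes of this pathway through short DNA motifs. RefSeq promoters (GRCh38.p14, 250 bases before to 50 bases after each start) matched 28 of the 34 genes, and SRPRA, TRAM1, SPCS1, RPN1, STT3B and TUSC3 were not matched. Each was searched on both strands for ERSE (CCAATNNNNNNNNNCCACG), ERSE-II (ATTGGNCCACG), the core of UPRE (TGACGTG) and the short ERSE element CCACG, which is also part of both ERSE motifs. A gene can have several promoters in the table, up to 3 among the 28, and counts as holding a motif when any of them does. ERSE was in none of the 28 and in 0.0916% of all 27305 genes. ERSE-II was likewise in none, and in 0.0696% of all. The UPRE core was in 5 of the 28 and in 2.40% of all genes, or in 5 of the 36 promoters of the 28 genes and in 1.97% of all 35116 promoters. The element CCACG was in 20 of the 28 and in 42.1% of all genes.

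The 5 genes with the UPRE core are shown with 10 bases on each side, whatever their call. Of these, 4 were lower: SEC62, SRP19, SSR3 and SSR4. SRP19 lost its call in 9 of 14 alternatives and SEC62 in 6 of 18, both with DESeq2 among them. A link between the core and the calls was not tested. SEC61A1 was not called. These stretches were chosen for printing after the search. Capitals mark the core, which reads CACGTCA where it lies on the opposite strand, and all are written along the gene's own strand.
SEC61A1: gggctagcacTGACGTGtctctcggcg
SEC62: ctcctcgctcCACGTCAgagggaaccg
SRP19: gtcttcatgcCACGTCAgagactagag
SSR3: tgataacagcCACGTCAgcaaggaaac
SSR4: agggaggggcCACGTCAgtgctgccag
They lie at chr3:128052426-128052452 (+ strand), chr3:169966781-169966807 (+), chr5:112861166-112861192 (+), chr3:156554149-156554175 (- strand) and chrX:153794530-153794556 (+). In the last 4 the core is preceded by C and so overlaps a CCACG element. Of the 23 matched genes without the core, 19 were tested and 8 were lower. A match describes letters in a window and does not show that a factor binds there.

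SRP is a ribonucleoprotein, and its proteins gave mostly small differences. SRP19, which helps to assemble the particle, stood at 6.03, 6.78, 5.56 and 7.75 CPM in siCTRL replicates 1 to 4 and at 0.824, 6.49, 3.60 and 1.59 CPM in siAPEX1 replicates 1 to 4. Replicate 2 of siAPEX1 reached the siCTRL range, and the other 3 lay below it. SRP19 was lower by the test (log2 fold change -1.03, SE 0.40, adjusted p = 0.0435 by edgeR), and lost its call in 9 of 14 alternatives, among them without siAPEX1 replicate 1, 3 or 4 or siCTRL replicate 3 (adjusted p from 0.0521 to 0.213). It shares exon bases with REEP5 on the other strand, and the strand setting of the counting is not given in the sources used here. On its own strand it shares 1470 exon bases with ZRSR2P1, a pseudogene with 0 counts.

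The other SRP proteins were not called. SRP54, the GTPase that binds the signal sequence, had a log2 fold change of 0.37 with a 95% interval from -0.03 to 0.77. SRP72, which pairs with SRP68 on the RNA, had -0.27, while SRP14 of the Alu domain and SRP68 had -0.06 each. SRP9, the partner of SRP14, was under the filter with 11, 15, 12 and 12 counts in siCTRL and 6, 4, 7 and 4 in siAPEX1. The groups did not overlap in raw counts or CPM for SRP9. A fit of the 22272 genes with at least 1 count put SRP9 at -0.68 on the log2 scale (edgeR adjusted p = 0.357). The RNA core of the particle, whose genes were named after their values were seen, was read from RN7SL2 (log2 fold change 0.37, adjusted p = 3.06e-04 by edgeR) and RN7SL3 (0.19, adjusted p = 0.0841), and RN7SL1 is listed at 0 counts in every library. These near-identical copies share reads, so their split is uncertain. Raw counts of RN7SL2 were 36553, 35912, 39185 and 29898 in siCTRL and 26349, 31096, 30161 and 28235 in siAPEX1, which overlapped. Its fold change rests on the scaling. With library sizes alone the median over all genes moved to -0.34, and the RNA genes are not given in that setting.

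Both genes of the SRP receptor had lower mean levels in siAPEX1. SRPRA, the peripheral GTPase subunit, stood at 12.1, 11.1, 12.5 and 14.4 CPM in siCTRL and at 11.5, 7.30, 7.21 and 7.15 CPM in siAPEX1. Replicate 1 of siAPEX1 lay within the siCTRL range and the other 3 lay well below. SRPRA was not called (log2 fold change -0.59, SE 0.25, adjusted p = 0.0665 by edgeR), and without replicate 1 of siAPEX1 it was (-0.76, adjusted p = 0.0400). Without replicate 3 of siAPEX1 its log2 fold change was -0.50. SRPRB, which anchors the receptor in the membrane, was under the filter with 13, 11, 11 and 9 counts in siCTRL against 2, 1, 4 and 0 in siAPEX1. Its groups did not overlap, and the fit of the 22272 genes gave a log2 fold change of -2.03 (SE 0.51) with an adjusted p of 0.00193 by edgeR.

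In the SEC61 translocon 2 of 6 tested genes were lower. TRAM1, a membrane protein beside the channel that helps chains insert, stood at 157, 130, 142 and 149 CPM in siCTRL and at 82.3, 69.8, 73.5 and 84.2 CPM in siAPEX1. Every siAPEX1 library lay far below every siCTRL library, and TRAM1 was lower with a log2 fold change of -0.90 (SE 0.10, adjusted p = 4.44e-09 by edgeR). SEC62, which serves entry after translation, stood at 54.8, 58.1, 61.2 and 57.6 CPM in siCTRL and at 43.6, 49.5, 45.4 and 43.7 CPM in siAPEX1. Its groups did not overlap either, by a narrower gap (-0.35, SE 0.12, adjusted p = 0.0234 by edgeR), and it lost its call in 6 of 18 alternatives, among them without siAPEX1 replicate 1, 3 or 4 or siCTRL replicate 3 (adjusted p from 0.0668 to 0.0919).

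The channel itself gave less. SEC61A1, the pore-forming alpha subunit, stood at 32.2, 32.9, 29.2 and 27.7 CPM in siCTRL and at 26.4, 14.6, 28.8 and 20.7 CPM in siAPEX1. The groups overlapped through replicate 3 of siAPEX1, and it was not called (-0.42, adjusted p = 0.0533 by edgeR). Without siAPEX1 replicate 3 (0.0289) or siCTRL replicate 4 (0.0465) its adjusted p passed. Without siAPEX1 replicate 2 its adjusted p was 0.320 by edgeR (log2 fold change -0.24). It shares exon bases with RUVBL1 on the other strand. SEC61A2, its paralogue, was under the filter with 7, 3, 5 and 2 counts in siCTRL and 0, 2, 2 and 2 in siAPEX1, too few for a fold. SEC61G, the gamma subunit, had the highest level per length of the 34 genes at 297 CPM per kb of transcript in siCTRL and 289 in siAPEX1. Its log2 fold change was -0.04 with a 95% interval from -0.23 to 0.16. SEC61B, the beta subunit, had -0.21 and SEC63, which recruits the chaperone BiP, had -0.41 (adjusted p = 0.0937 by edgeR), neither called. SEC63 passed without siAPEX1 replicate 1 (0.0367) or siCTRL replicate 4 (0.0435), and had an adjusted p of 0.402 by edgeR without siAPEX1 replicate 3.

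All 4 TRAP genes were lower, the only complex of the 6 in which every tested gene passed. SSR1 (alpha) stood at 40.7, 54.2, 43.6 and 45.4 CPM in siCTRL and at 33.8, 37.3, 30.3 and 33.4 CPM in siAPEX1, with no overlap. SSR2 (beta) stood at 63.4, 44.6, 55.1 and 59.2 CPM against 46.1, 34.1, 30.3 and 39.7 CPM, where replicate 1 of siAPEX1 lay just above replicate 2 of siCTRL. For SSR3 (gamma), the siCTRL libraries held 62.9, 53.3, 44.95 and 50.9 CPM and the siAPEX1 libraries 36.2, 33.3, 26.0 and 34.95 CPM. That gene's groups did not overlap. SSR4 (delta) stood at 55.8, 54.2, 52.4 and 45.4 CPM against 40.3, 39.0, 34.6 and 25.4 CPM, again without overlap.

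Within TRAP the log2 fold changes were -0.45 (SE 0.14, adjusted p = 0.00962 by edgeR) for SSR1, -0.57 (SE 0.14, adjusted p = 0.00144) for SSR2, -0.71 (SE 0.14, adjusted p = 1.07e-04) for SSR3 and -0.58 (SE 0.14, adjusted p = 9.45e-04) for SSR4. Differences among these 4 were not tested. SSR1 lost its call in 3 of 18 alternatives, among them without siCTRL replicate 2 (adjusted p = 0.0612 by edgeR) or siAPEX1 replicate 3 (0.0665). SSR4 shares exon bases with IDH3G on the other strand.

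Signal peptidase moved in both directions. SPCS2, a subunit that does not cut (chr11:74949261-74979033, + strand, GRCh38), stood at 37.7, 55.2, 37.5 and 54.8 CPM in siCTRL and at 123, 99.0, 112 and 120 CPM in siAPEX1. Every siAPEX1 library lay far above every siCTRL library, and SPCS2 was higher, at 1.30 on the log2 scale (SE 0.12, 95% interval 1.05 to 1.54, adjusted p = 2.44e-11 by edgeR). Its raw counts were 75, 114, 81 and 99 in siCTRL and 149, 122, 155 and 151 in siAPEX1, so they were higher too, although the siAPEX1 libraries were shallower. SPCS2 shares no exon bases with another annotated gene.

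The catalytic subunits were lower. SEC11A stood at 62.4, 52.3, 44.03 and 51.5 CPM in siCTRL and at 28.8, 30.03, 24.5 and 23.8 CPM in siAPEX1, with no overlap (-0.97, SE 0.15, adjusted p = 9.05e-07 by edgeR). SEC11C, its paralogue, stood at 13.6, 13.1, 13.9 and 5.53 CPM against 4.12, 8.12, 6.49 and 3.18 CPM. Replicate 4 of siCTRL lay within the siAPEX1 range, apart from the other 3, and SEC11C was lower (-1.08, SE 0.31, adjusted p = 0.00676 by edgeR). SPCS3, another subunit of the complex, stood at 22.1, 16.0, 18.5 and 14.4 CPM against 9.06, 8.93, 10.1 and 11.9 CPM, without overlap (-0.83, SE 0.22, adjusted p = 0.00378 by edgeR). SPCS1 was not called (-0.23, 95% interval -0.65 to 0.20), and it shares exon bases with NEK4 and GLT8D1 on the other strand.

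The share of the complex's counts that SPCS2 took was 24.4% to 36.9% in the siCTRL libraries and 60.4% to 68.6% in the siAPEX1 libraries, a quantity that does not depend on the scaling. The summed level of the 5 genes was 117% of siCTRL, and of the other 4 without SPCS2 57.7%. In those 4 the sum was 99.7 ± 12.2 CPM in siCTRL and 57.5 ± 5.62 CPM in siAPEX1 (SD, n = 4 each).

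**Figure D2:**
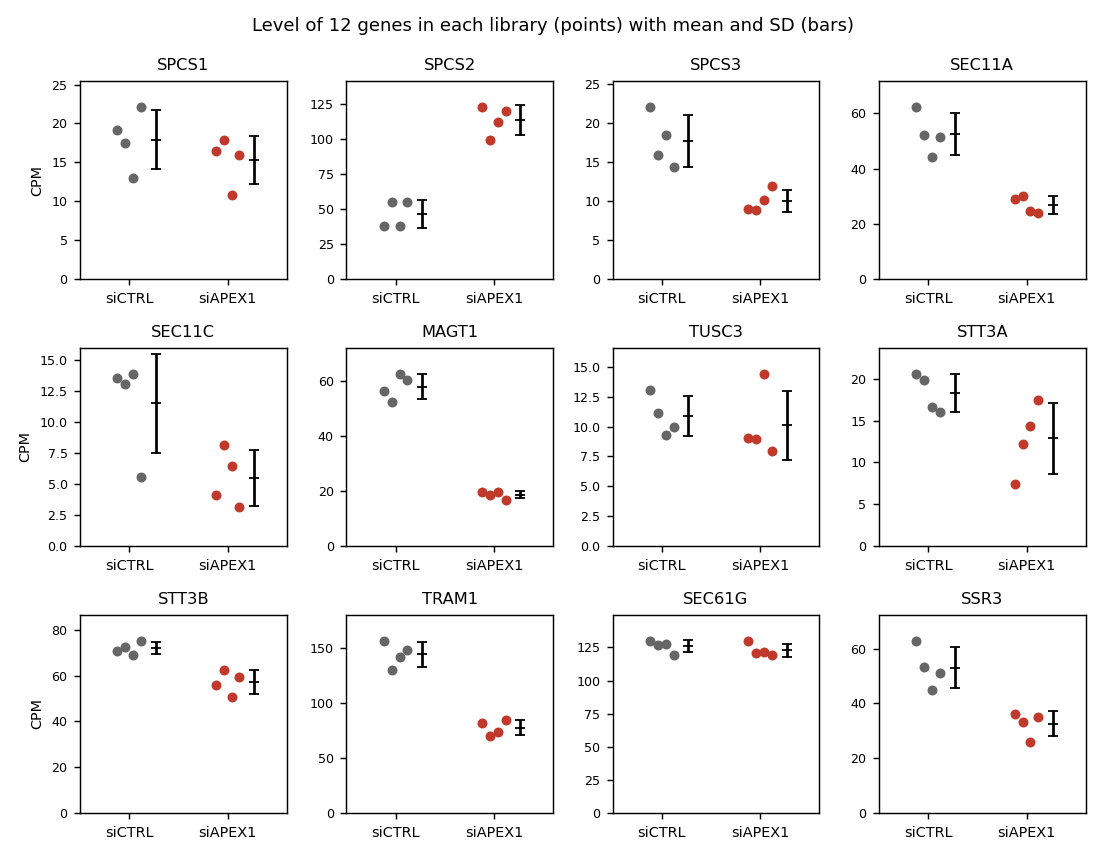
Level in CPM (y axis, from 0, own scale in each panel) of 12 genes in the 4 siCTRL and 4 siAPEX1 libraries, as points, with mean and SD beside them. SPCS2 is the panel in which all siAPEX1 libraries lie above the siCTRL libraries, in MAGT1 and TRAM1 they lie far below, and in SEC61G, TUSC3 and SPCS1 the groups overlap.

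In OST 4 of 9 tested genes were lower, and MAGT1 differed most. MAGT1 (chrX:77825747-77899271, - strand, GRCh38) is the oxidoreductase subunit of the form of OST built on STT3B. It stood at 56.3, 52.3, 62.6 and 60.3 CPM in siCTRL and at 19.8, 18.7, 19.5 and 16.7 CPM in siAPEX1. No siAPEX1 library came near the siCTRL range, and MAGT1 was lower with a log2 fold change of -1.63 (SE 0.15, 95% interval -1.93 to -1.33, adjusted p = 6.01e-12 by edgeR), 32.3% of the siCTRL level. TUSC3, its paralogue, stood at 13.1, 11.1, 9.27 and 9.96 CPM in siCTRL and at 9.06, 8.93, 14.4 and 7.94 CPM in siAPEX1. The groups of TUSC3 overlapped widely, and it was not called (-0.09, 95% interval -0.59 to 0.42).

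The catalytic subunits of OST are STT3A, which acts at the channel, and STT3B, which also acts after translation. STT3B stood at 70.9, 72.6, 69.0 and 75.3 CPM in siCTRL and at 56.0, 62.5, 50.5 and 59.6 CPM in siAPEX1, without overlap (-0.33, SE 0.11, adjusted p = 0.0214 by edgeR). STT3A stood at 20.6, 19.9, 16.7 and 16.0 CPM against 7.41, 12.2, 14.4 and 17.5 CPM, where replicate 4 of siAPEX1 reached the siCTRL range, and it was not called (-0.50, SE 0.22, adjusted p = 0.0747 by edgeR). Without that library its adjusted p was 0.0412, and without siAPEX1 replicate 1 it was 0.354 by edgeR (log2 fold change -0.29). Its interval from -0.93 to -0.06 holds the value for STT3B.

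Of the other subunits, RPN2 (ribophorin II) stood at 72.4, 61.02, 66.3 and 60.3 CPM in siCTRL and at 51.1, 56.8, 51.9 and 50.8 CPM in siAPEX1, without overlap (-0.31, SE 0.12, adjusted p = 0.0423 by edgeR). OSTC, which links the STT3A form to the channel, stood at 38.7, 32.4, 33.4 and 23.2 CPM against 23.1, 21.9, 24.5 and 24.6 CPM. Replicate 4 of siCTRL lay within the siAPEX1 range for OSTC (-0.45, SE 0.17, adjusted p = 0.0345 by edgeR). RPN2 and OSTC each lost their call in 10 of 18 alternatives. RPN2 lost it without each library except siCTRL replicates 2 and 4, and OSTC without each except siCTRL replicate 4. STT3B lost it in 5 of 18, among them without siAPEX1 replicate 1, 3 or 4 or siCTRL replicate 4 (adjusted p from 0.0502 to 0.152). RPN1, DAD1 and OST4 were not called, at -0.33, -0.28 and -0.30. OST4 passed without siAPEX1 replicate 3 (adjusted p = 0.0368 by edgeR), and without siAPEX1 replicate 2 its adjusted p was 0.451. DDOST was under the filter with 4, 11, 6 and 8 counts in siCTRL and 5, 8, 5 and 6 in siAPEX1, which overlapped (0.28, adjusted p = 0.698 by edgeR among 22272 genes). It shares 427 exon bases with PINK1-AS on the same strand.

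Summed over its members in each library, with genes under the filter kept, the level of each complex is a description that was not tested. The sum in siAPEX1 as a share of that in siCTRL was 91.4% for SRP, 53.5% for the SRP receptor and 75.5% for the SEC61 translocon. It was 67.2% for TRAP and 72.6% for OST. The genes of a complex did not share these differences evenly. The SEC61 sum went from 408 CPM in siCTRL to 308 CPM in siAPEX1. Within it TRAM1 went from 145 to 77.5 CPM, and the channel subunit SEC61G from 126 to 123 CPM. All 34 genes together came to 79.1%, from 1243 ± 41.9 CPM in siCTRL to 983 ± 26.7 CPM in siAPEX1 (SD, n = 4 each). As a share of nuclear protein-coding counts they were 0.886% ± 0.0244 in siCTRL and 0.700% ± 0.0179 in siAPEX1. The siAPEX1 and siCTRL libraries did not overlap for the receptor, the translocon, TRAP and OST. For signal peptidase all siAPEX1 sums lay above, and the direction of that sum turned under scaling by library size alone.

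**Figure D3:**
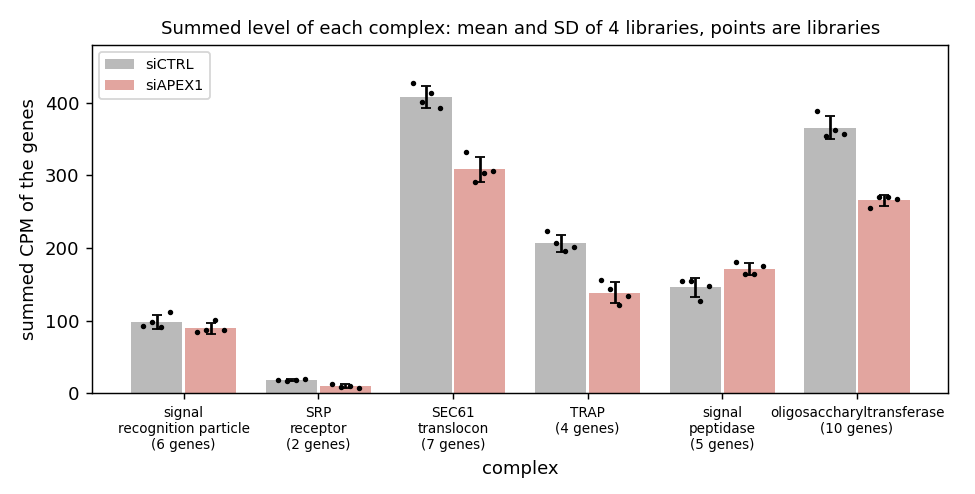
Summed CPM of the genes of each complex (y axis, from 0) in siCTRL (grey) and siAPEX1 (red), as bars for the mean of 4 libraries with SD and points for libraries. The siAPEX1 bar is lower for 5 complexes and higher for signal peptidase, at 117% of siCTRL.

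Within a library the ratio of 2 genes does not depend on how libraries are scaled, so paralogues were compared as log2 ratios of counts with 0.5 added, in 3 pairs. MAGT1 over TUSC3 was 2.09, 2.21, 2.72 and 2.57 in siCTRL and 1.09, 1.03, 0.42 and 1.03 in siAPEX1. All 4 siAPEX1 libraries lay below, with a difference of means of -1.501, at an exact two-sided permutation p of 0.0286, the smallest that 4 against 4 allows (0.0857 adjusted over 3 pairs). STT3A over STT3B differed by -0.21 (exact permutation p = 0.543, adjusted 0.814) and SEC11A over SEC11C by 0.05 (exact permutation p = 0.971, adjusted 0.971), with groups overlapping. The pair SEC61A1 and SEC61A2 had too few counts to give a ratio.

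Per length of transcript the genes spanned a wide range of levels. SEC61G, OST4 at 98.0 CPM per kb and SSR4 at 85.4 CPM per kb were highest in siCTRL, and SEC61A2 at 0.841 CPM per kb was lowest. The transcripts of SEC61G, OST4 and SSR4 are short, at 425, 442 and 608 bases. Before division by length TRAM1 was highest in siCTRL, at 145 CPM against 126 CPM for SEC61G. Whether counts from this kit scale with transcript length was not tested. SPCS2 stood at 17.2 CPM per kb in siCTRL, below SEC11A at 48.7, and at 42.1 in siAPEX1, above SEC11A at 24.8. MAGT1 stood at 12.8 CPM per kb in siCTRL and 4.14 in siAPEX1, and TUSC3 at 2.94 and 2.73.

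**Figure D4:**
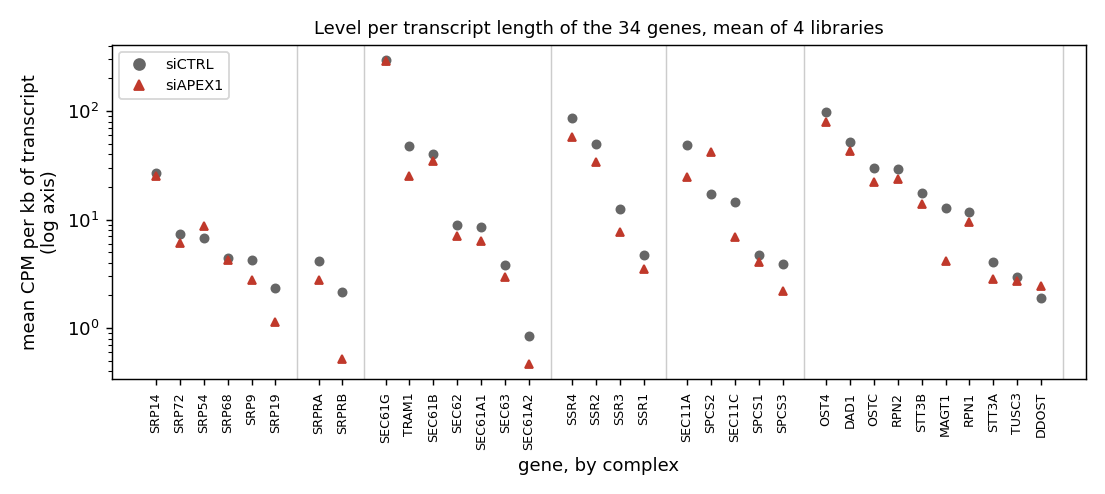
Mean level per transcript length of the 34 genes in CPM per kb (log y axis), ordered within each complex, with grey circles for siCTRL and red triangles for siAPEX1 (mean of 4 libraries, no error drawn). SEC61G is highest at 297 and 289 CPM per kb, and SPCS2 changes place with SEC11A.

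Other genes of ER entry and N-glycosylation are set beside the shares over all genes tested, 15.8% lower and 15.9% higher. Among 7 accessory genes 4 were tested and none was called (edgeR, as above), with log2 fold changes between -0.15 and -0.01. Of 26 genes of other insertion routes (the EMC, GET and multipass machinery), 14 were tested, 2 were lower and 2 higher, which is near those shares in both directions. EMC10, a subunit of the ER membrane complex, was lower at -2.31 and TMEM147 at -0.52, while EMC2 was higher at 0.65 and CCDC47 at 0.54. Of 29 genes that build the lipid-linked sugar donor 5 were tested and 1 was lower, GMPPA (-1.05), a regulator of GDP-mannose synthesis.

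Downstream of OST, 6 of 13 tested genes of ER glycan processing were lower and none higher, against 15.8% and 15.9% of all genes. EDEM1, which sends misfolded glycoproteins to degradation, had -1.30 and the lectin chaperone CALR -1.17. Targets of the unfolded protein response (UPR), a context list, had 12 of 16 tested genes lower and none higher, against the same shares, with a median of -1.06. The chaperone HYOU1 had -2.19 and CRELD2 -2.08. The 4 genes of that list not called were DDIT3 at 0.34, XBP1 at 0.16, ATF4 at -0.23 and DNAJB9 at -0.26. The median over the 30 genes of the 6 complexes was -0.38. In that UPR list the promoters of 5 of 15 matched genes held ERSE, 3 held ERSE-II, 1 held the UPRE core and 13 held CCACG.

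**Figure D5:**
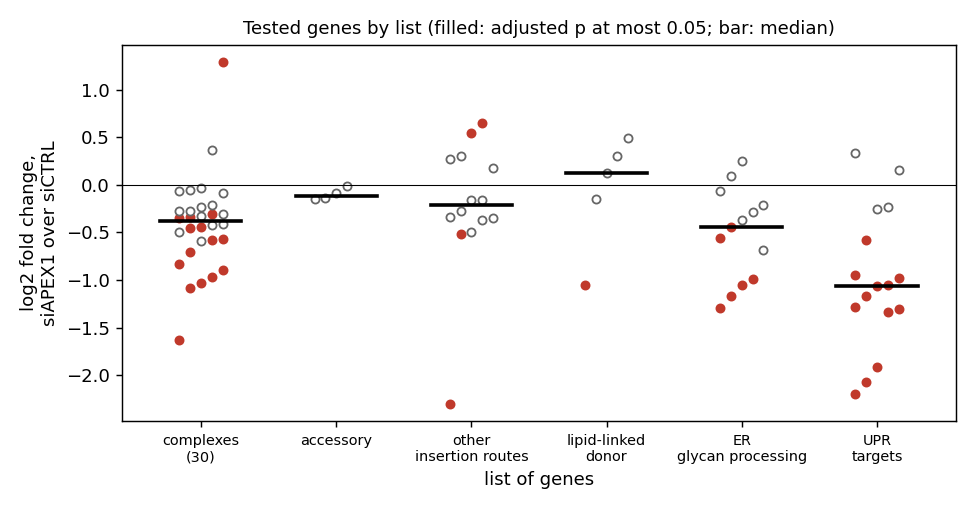
Log2 fold change of siAPEX1 over siCTRL (y axis) of each tested gene, by list, with filled red circles for an adjusted p of at most 0.05 and a bar for the list's median. The first column holds the 30 tested genes of the 6 complexes (median -0.38), and the UPR targets at the right have the lowest median, -1.06.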

How the data were processed

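Per the labels and the study's methods, RNA of A549 cells was sequenced as 8 libraries, 4 labelled siCTRL and 4 labelled siAPEX1. The authors trimmed the reads, aligned them to GRCh38 with STAR 2.5.3a and deposited raw counts per gene; the annotation release and strand setting are not given in the sources used here. The title of siCTRL replicate 3 and its column differ in a leading number and were matched by group and replicate. Gene positions and exons came from GENCODE 44, matched for 57532 of 58302 genes.

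Genes were kept with filterByExpr (minimum count 10, minimum total 15), scaled by TMM over the kept genes, and tested with edgeR 4.0.16 (quasi-likelihood, R 4.3.3, Benjamini-Hochberg), with DESeq2 1.42.0 as an alternative. The first scaling tried, over all genes, gave other counts, and the scaling used follows earlier processing of these data and was set after that result was seen. CPM are counts per 1000000 counts of the scaled library size, per kb over the canonical transcript. The fit was tested on simulated data. Members and lists were chosen with earlier results of these data known. Named genes were every member, and the called genes with the largest change, up to 2 in each direction, of each other list. The uncalled genes of the UPR list were named as well. Replicate pairs differed by more than sampling noise, with a chi-square per degree of freedom of 1.91 to 3.91. Of the 34 genes, 17 share exon bases with another gene in the table, 15 of them with one on the other strand and 5 with one on the same strand. The 28 pseudogenes of 10 genes held 8 counts in all.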

Additional observations from a re-analysis of the deposited data

Results flagged for a closer look

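In 68 groups of 4 libraries, the highest or lowest library was checked for a gap to its nearest neighbour that, as a share of the group's range, is above Dixon's critical value, and 3 groups passed, where chance gives about 1 in 20. SRPRA stood at 11.5 CPM in siAPEX1 replicate 1, against 7.30 CPM in the next library. SEC11C stood at 5.53 CPM in siCTRL replicate 4, against 13.1 CPM in the next, and from 10 counts. SEC61A2 had 0 counts in siAPEX1 replicate 1, where a count of 0 allows up to 3 counts.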

How the results depend on the processing

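The count of genes called lower was 14, and 8 with DESeq2, 26 with library sizes alone and 19 with TMM over all genes. Among all genes tested 15.8%, 10.1%, 36.2% and 19.0% were lower in these settings, in that order. TMM over all genes and TMM over nuclear protein-coding genes were alternatives added after seeing the data. Protein-coding TMM gave 10 (nuclear 11), where 14.0% (nuclear 14.1%) of all genes were lower. Leaving out a library gave 10 to 14, where 12.2% to 14.8% of all genes were lower. SPCS2 was the 1 higher gene in every setting. The 4 genes past both thresholds became 7 at a log2 fold change of 0.75 and 7 with library sizes alone. Without a library they were 2 to 5 (2, MAGT1 and SPCS2, without siAPEX1 replicate 1 or 4). Matching shares of all genes past both thresholds are not given for these settings. The median of -0.38 became -0.72 with library sizes alone, where the median of all genes moved to -0.34, -0.51 over genes with at least 1 count and -0.47 with TMM over all genes. Lower calls among all genes were 49.7% of calls, but 85.1%, 61.6% and 60.7% in those settings. Log2 sums of complexes with library sizes alone were -0.47 for SRP, -1.24 for its receptor, -0.75 for SEC61, -0.91 for TRAP, -0.80 for OST, -0.68 for all and -0.11 for signal peptidase, which reversed. With TMM over all genes they were -0.50 for SEC61, -0.56 for OST and -0.43 for all, and all came to -0.29 in both protein-coding settings. Uncalled values that turned sign were SEC61G at 0.012 (protein-coding TMM) and 0.0075 (nuclear). Without a library, SEC61G ran from -0.056 to 0.0038, SRP14 from -0.17 to 0.082, SRP68 from -0.21 to 0.061 and TUSC3 from -0.30 to 0.038. SEC11A over SEC11C was -0.0080 with 1 added and ran from -0.15 to 0.35 without a library, and STT3A over STT3B from -0.35 to 0.018. MAGT1 over TUSC3 ran from -1.60 to -1.34. The causes were not tested. With the replicate number as a block 12 genes were lower and 1 higher, 2 fewer calls, where 14.7% of all genes were lower. Same-numbered libraries correlated between -0.037 and -0.003, and those of different number between -0.040 and 0.036, so no effect shared by number was seen. This does not show whether same-numbered cultures were handled together. The low counts limit the genes near the filter most.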
